A study of Rattus norvegicus with 70 samples.

Results

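The 45 genes described here encode proteins of the nucleolus and of ribosome assembly. They were taken by symbol from a list, and all 45 were present among the 19441 gene entries of each of 6 tissue tables. The list was selected on the ozone against air fold changes and calls of these same libraries, so the ozone values below describe the members and are not evidence for them. Male Wistar-Kyoto rats, an inbred strain, breathed 0.8 ppm ozone for 4 h or air, and RNA was taken from 6 tissues. Lung, liver and hypothalamus had 6 ozone and 6 air libraries each. Adrenal gland had 6 ozone and 5 air libraries, adipose tissue had 5 of each, and skeletal muscle had 5 ozone and 6 air libraries. Of 70 labelled libraries 68 were used, without air 7 of adrenal and ozone 17 of muscle (both not analysed here). The sources used here give neither the age of the rats nor the time of collection.

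Ribosomes are assembled in the nucleolus, where RNA polymerase I transcribes the precursor of the large ribosomal RNAs. Small nucleolar ribonucleoproteins (snoRNPs) modify that precursor. Box C/D particles add methyl groups to ribose and box H/ACA particles convert uridine to pseudouridine. A large assembly called the small subunit processome folds and cleaves the part of the precursor that becomes the small subunit, and another set of factors builds the large subunit. Cells adjust this work to growth signals, and the transcription factor MYC, which pairs with MAX on the DNA sequence CACGTG, is known to activate many of the genes involved.

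Messenger RNA was sequenced, and values are the authors' normalised counts, that is read counts per gene divided by a size factor for each library. Library totals recovered from them ran from 8854272 to 18848151 reads. Defining markers of the labelled tissue were detected in every tissue, and none of its markers was at 0. On a principal component analysis adrenal ozone 16 and adrenal air 8 lay apart from the other adrenal libraries, and liver air 1 from the other liver libraries. Hypothalamus ozone 17 lay at 70.4 on the first component (next library 32.5), and hypothalamus ozone 15 at -59.8 on the second. Adipose ozone 22 lay at 64.9 (next 41.7) and lung air 2 at 66.8 (next 45.9) on the first. The numbers of members risen in adrenal and liver are also given without the adrenal and liver libraries named, as are adrenal fold changes of Nop56, Ncl, Npm1 and Gpatch4. Values of other single genes in adrenal and liver are given only with these adrenal and liver libraries. A gene is said to have risen or fallen with ozone when the Benjamini-Hochberg adjusted p of limma's test across all genes of the tissue was under 0.05. Fold changes are ozone minus air on the log2(value + 1) scale, given ± standard error, and means are given ± SD. For groups of 6 libraries the lowest, median and highest value are given, and for groups of 5 every value.

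Transcripts of many of these genes were higher with ozone, and none fell past the threshold in any tissue. In lung 10 of 45 rose and 0 fell, where 9.51% of all genes tested rose and 8.18% fell. In liver 19 rose, where 6.74% of all genes rose and 4.72% fell, and without air 1 the number was 18. In adrenal 24 rose, where 9.23% rose and 9.38% fell (18.6% in either direction). Without ozone 16 and air 8 the number was 32, where 30.2% of all genes were called in either direction. In hypothalamus 2 rose, where 0.789% rose and 0.624% fell (1.41% in either direction). In adipose tissue 8 rose, where 3.87% rose and 3.45% fell (7.32%). In muscle 22 rose, where 21.6% rose and 22.1% fell (43.7%). The lung number was between 3 and 6 when ozone 13, 15 or 20 or air 7, 8 or 9 was left out, the liver number 11 without ozone 20 and 12 without air 7, and the hypothalamus number 1 without any library other than ozone 15 and air 6. For fits that leave out a single library the shares of all genes are not given. Whether the members alone or all genes changed in calls cannot be told from these numbers. Other settings moved these numbers: array weights gave 16 in lung (14.2% of all genes) and 4 in hypothalamus (2.64%), DESeq2 gave 15 in adipose tissue (5.9%), and total-read scaling gave 3 in lung (6.77%), 1 in hypothalamus (0.591%), 5 in adipose tissue (2.5%) and 8 in muscle (8.52%). The median log2 fold change of the 45 genes was 0.25 in lung, 0.42 in liver, 0.56 in adrenal, 0.12 in hypothalamus, 0.32 in adipose tissue and 0.37 in muscle, while the median of all genes tested lay between -0.00 and 0.02. Since the members were chosen with this contrast known, nothing is read from these counts against the background. In whole tissue, a change in the number of cells that carry a transcript and a change in its amount per cell cannot be told apart.

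**Figure D1:**
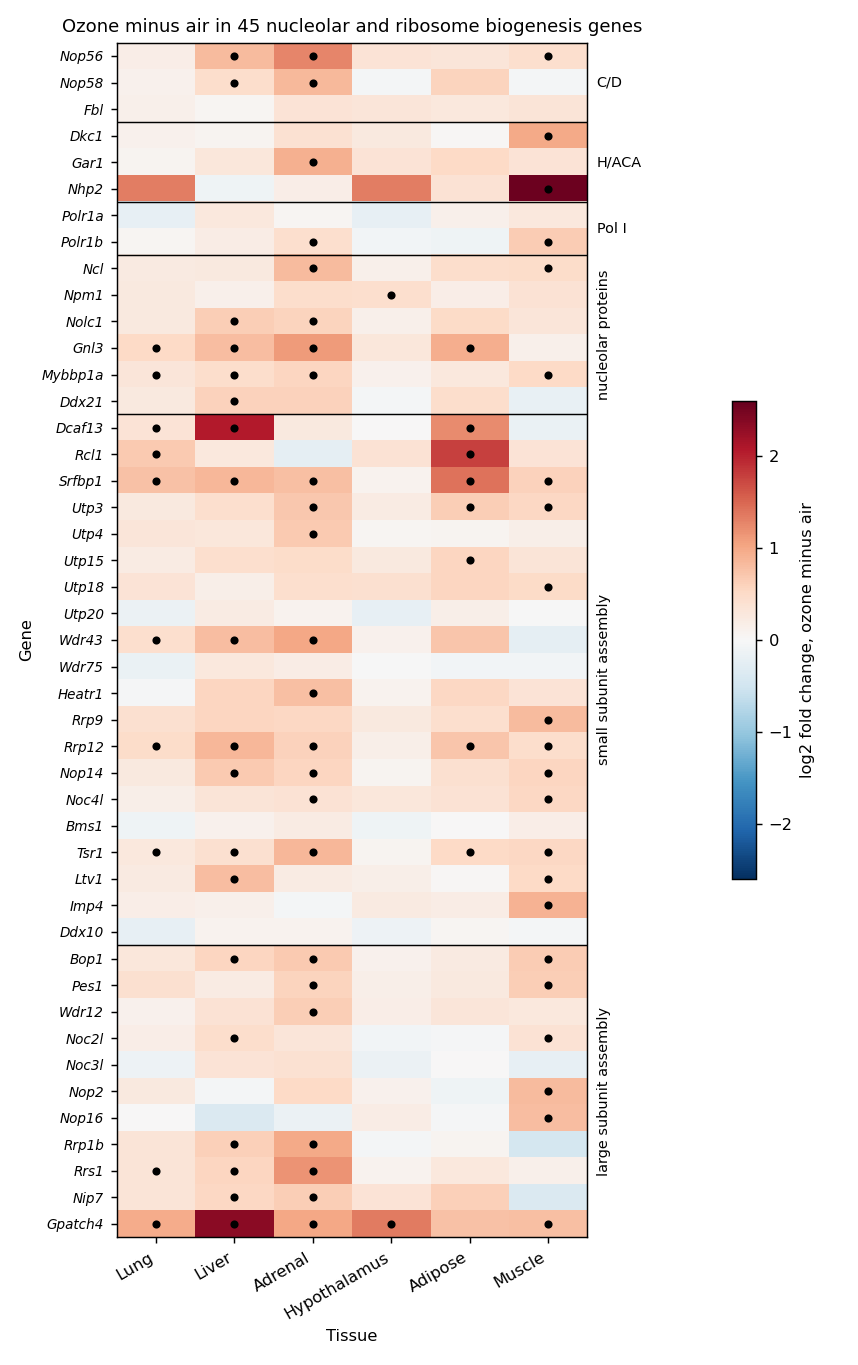
Log2 fold change, ozone minus air, of the 45 genes (rows, in groups by role) in 6 tissues (columns), with the colour scale from blue (lower with ozone) to red (higher with ozone) and a dot where the gene rose with an adjusted p under 0.05. Most cells are pale red, and the darkest are Nhp2 in muscle (2.56), Gpatch4 in liver (2.34) and Dcaf13 in liver (2.07).

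The groups were also compared library by library, by whether all ozone libraries lay above all air libraries. That held for 5 members in lung (5.54% of all genes tested), 13 in liver (4.77%), 19 in adrenal (6.49%), 2 in hypothalamus (1.17%), 12 in adipose tissue (4.38%) and 16 in muscle (12.8%). No member had all ozone libraries below all air libraries in any tissue, a pattern shown by 4.00% of all genes in lung, 2.85% in liver, 6.39% in adrenal, 0.979% in hypothalamus, 4.43% in adipose tissue and 11.5% in muscle. A mean over the 45 genes was taken in each library, on the log2 scale with the air mean of the tissue set to 0. It ran from 0.38 to 0.56 in ozone livers and from -0.14 to 0.13 in air livers. In adrenal it ran from 0.36 to 0.62 with ozone and from -0.08 to 0.08 with air. In these tissues the ozone and air libraries did not overlap, and the same was true of adipose tissue (0.29 to 0.58 against -0.17 to 0.13) and muscle (0.32 to 0.51 against -0.23 to 0.09). Lung overlapped, with 0.04 to 0.39 in ozone libraries and -0.12 to 0.19 in air libraries, and so did hypothalamus, with 0.06 to 0.27 and -0.10 to 0.07.

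**Figure D2:**
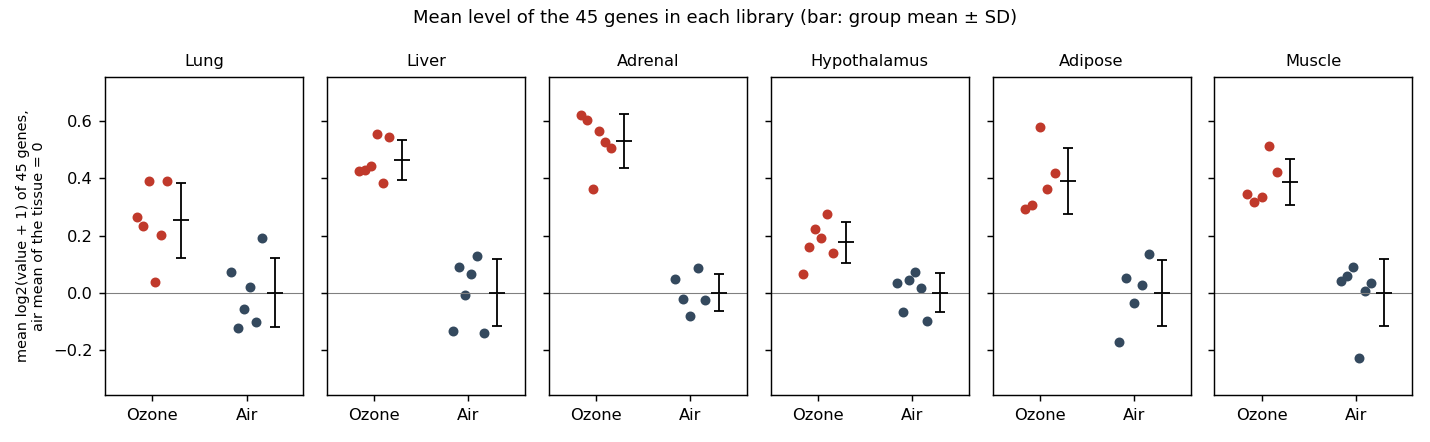
Mean log2(value + 1) over the 45 genes in each library, with the air mean of each tissue set to 0; ozone libraries are red, air libraries are dark blue, and bars give the group mean ± SD. Ozone and air libraries separate in liver, adrenal, adipose tissue and muscle and overlap in lung and hypothalamus, and muscle air 7 lies lowest at -0.23.

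CPM (reads scaled to a common library total) were summed over the 45 genes. They came to 1283 ± 46.0 CPM in ozone livers and 878 ± 32.0 in air livers, and 3374 ± 142 in ozone adrenals against 2493 ± 78.2 in air adrenals. The sums were 1744 ± 221 with ozone and 1414 ± 113 with air in adipose tissue, 1773 ± 140.4 and 1584 ± 132 in lung, and 1642 ± 74.1 and 1524 ± 61.2 in hypothalamus. Muscle differed from the rest in this measure. Its members summed to 1015 ± 82.9 CPM with ozone and 1047 ± 40.7 with air, so that their share of all reads was not higher with ozone there. The deposited size factors and the total reads disagree most in muscle: scaling to total reads, an alternative added after the data were seen, put the median of all genes at -0.31 in muscle, -0.14 in adrenal and -0.13 in adipose tissue. Under it 8 members rose in muscle (Bop1, Dkc1, Imp4, Nhp2, Nop16, Nop2, Polr1b and Rrp9) and 8 fell (Dcaf13, Ddx21, Nip7, Noc3l, Nop58, Rrp1b, Wdr43 and Wdr75). Of all genes tested in muscle under this scaling, 8.52% rose and 38.3% fell. The other 14 muscle calls were lost, 7 members with a positive muscle fold change had a negative one, and the share of all muscle calls that were rises was 18.2%, against 49.4% with the deposited scaling. That share was 29.5% against 49.6% in adrenal, 27.4% against 52.8% in adipose tissue, 37.1% against 53.8% in lung and 45% against 55.8% in hypothalamus. A change of scaling moves the fold changes of all genes of a tissue by nearly the same amount. The members' median relative to that of all genes therefore could not differ much, and its agreement is no check of either scaling. It was 0.35 in muscle, 0.56 in adrenal and 0.31 in adipose tissue under both. No member fell in any of the other 5 tissues under total-read scaling.

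The box C/D group holds Nop56 and Nop58, the paired core proteins of these particles, and Fbl, the ribose methyltransferase. Nop56 rose in liver, adrenal and muscle. Its normalised counts in adrenal were 686, 1030.3 and 1340.0 in ozone libraries (lowest, median and highest), against 489, 455, 259.5, 526 and 477 in the 5 air libraries. Every ozone adrenal lay above every air adrenal, and the fold change was 1.27 ± 0.21. Without ozone 16 and air 8 it was 1.21. Nop56 reached 139 ± 12.4 in ozone livers and 80.2 ± 20.5 in air livers (0.83 ± 0.19), again with no overlap, and 284 ± 36.2 in ozone muscles and 212 ± 44.8 in air muscles (0.44 ± 0.16), with overlap. Under total-read scaling the muscle fold change was 0.12 and was not called.

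Nop58 rose in adrenal, to between 988 and 1294 with ozone against 547 to 685 with air (0.84 ± 0.11), and in liver, to 209 ± 25.8 against 150.5 ± 16.3 (0.47 ± 0.12). The ozone and air libraries did not overlap in either tissue. In hypothalamus and muscle its fold changes were -0.05 and -0.04. Fbl did not pass the threshold in any tissue, with fold changes between 0.05 in liver and 0.35 ± 0.20 in adrenal. Its adrenal counts of 279, 378 and 491 with ozone overlapped those of 383, 254, 201, 329 and 369 with air.

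Of the box H/ACA proteins, Dkc1 (dyskerin, the pseudouridine synthase) rose in muscle and passed the threshold in no other tissue. Its muscle counts were 440.1, 305, 379, 396 and 325 in the 5 ozone libraries, against 108, 194 and 272 as lowest, median and highest in air. All ozone muscles lay above all air muscles, and the fold change was 0.99 ± 0.21. Gar1, a structural partner of dyskerin, rose in adrenal, to 119 ± 18.7 with ozone against 62.1 ± 8.1 with air (0.93 ± 0.15). Nhp2, the RNA-binding partner, had the largest fold change of any member, 2.56 ± 0.85 in muscle, on very low counts. Muscle values were 90.5, 24.3, 41.1, 16.5 and 32.1 with ozone against 0, 9.96 and 26.2 with air, and the groups overlapped. The call was lost without ozone 13, ozone 16 or air 9, where the fold change was 2.21, 2.49 and 2.04. In lung and hypothalamus Nhp2 had fold changes of 1.33 ± 0.84 and 1.33 ± 0.54, and neither passed the threshold. Nhp2 and Npm1 have closely similar copies in rodent genomes, and no source read here states how reads were counted, so their levels are uncertain.

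Polr1a and Polr1b encode the large catalytic subunits of RNA polymerase I. Polr1b rose in muscle and adrenal. Its muscle counts were 319, 341, 355, 361 and 358 with ozone and 176, 222 and 255 with air, with no overlap and a fold change of 0.66 ± 0.12. In adrenal it averaged 394 ± 53.9 with ozone and 289.7 ± 36.1 with air (0.44 ± 0.13). Polr1a passed the threshold in no tissue, with fold changes from -0.22 ± 0.11 in lung to 0.28 ± 0.17 in muscle.

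Among 6 nucleolar proteins of broader function, 2 rose in lung, 4 in liver, 4 in adrenal, 1 in hypothalamus, 1 in adipose tissue and 2 in muscle, where 9.51%, 6.74%, 9.23%, 0.789%, 3.87% and 21.6% of all genes tested rose in these tissues. Ncl (nucleolin) binds the precursor RNA and promotes its transcription and processing. It rose in adrenal and muscle. Adrenal values were 1889, 2361 and 3034 with ozone and 1462, 1540.0, 875, 1492 and 1524 with air. Every ozone library was above every air library, also apart from the low value of air 8, and the fold change was 0.83 ± 0.17, or 0.74 without ozone 16 and air 8. Npm1 (nucleophosmin), an abundant nucleolar chaperone, rose in hypothalamus, with 1166, 1278 and 1483 in ozone libraries and 847, 946 and 1074 in air libraries (0.43 ± 0.10). That call was lost when any of 10 of the 12 hypothalamus libraries was left out, at fold changes of 0.39 to 0.46, and held without ozone 15 or without air 6. In adrenal Npm1 had 1702, 2508 and 2687 with ozone against 1961, 1887, 1003, 1653 and 2115 with air. The adrenal groups overlapped, and the fold change of 0.47 ± 0.20 did not pass the threshold. Without ozone 16 and air 8 it was 0.37 and passed.

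Gnl3 (nucleostemin), a nucleolar GTPase of proliferating and stem cells, rose in lung, liver, adrenal and adipose tissue. In adrenal it had 1109, 1219 and 1606 with ozone against 562, 608, 811, 508 and 561 with air (1.10 ± 0.15). In adipose tissue it had 1142, 831, 1732, 846 and 1024 with ozone against 537, 507, 609, 531 and 614 with air (0.94 ± 0.19). The groups did not overlap in adrenal, adipose tissue or liver, and overlapped in lung. In muscle its fold change was 0.13. Mybbp1a, a nucleolar protein that binds the MYB transcription factor, also rose in 4 tissues, with fold changes of 0.31 ± 0.10 in lung, 0.46 ± 0.12 in liver, 0.56 ± 0.16 in adrenal and 0.52 ± 0.13 in muscle. Nolc1, a chaperone of snoRNPs, rose in liver (0.64 ± 0.13) and adrenal (0.57 ± 0.11). Ddx21, an RNA helicase of the nucleolus, rose in liver, to 1391 ± 157 with ozone against 954 ± 320.1 with air, with overlap.

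The 20 small subunit factors held the 3 members with the largest fold changes in adipose tissue, Rcl1, Srfbp1 and Dcaf13. Of the 20, 6 rose in lung, 7 in liver, 9 in adrenal, 0 in hypothalamus, 7 in adipose tissue and 10 in muscle, where 9.51%, 6.74%, 9.23%, 0.789%, 3.87% and 21.6% of all genes tested rose in these tissues. Dcaf13, a WD-repeat protein of the small subunit processome, rose in lung, liver and adipose tissue. Liver values were 3026, 3633 and 3920.1 with ozone and 709, 844 and 1025 with air (2.07 ± 0.12). In adipose tissue they were 3226, 2690.2, 2340.3, 2339.8 and 2582 with ozone and 960.0, 1037, 1147, 1166 and 1311 with air (1.23 ± 0.13). Neither tissue showed overlap. In lung the fold change was 0.36 ± 0.11, with overlap. It did not pass the threshold in adrenal (1285 ± 132 with ozone and 1073 ± 118 with air), hypothalamus (676 ± 55.6 with ozone and 678 ± 94.8 with air) or muscle (501 ± 38.1 with ozone and 568 ± 46.3 with air).

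Rcl1, a processome protein related to RNA cyclases, showed another tissue order. It rose in adipose tissue, with 875, 1054, 863, 779.6 and 827 in ozone libraries and 195, 254, 226, 304 and 314 in air libraries (1.78 ± 0.15). It rose in lung, with 199.7, 205 and 227 with ozone against 104, 132 and 162 with air (0.67 ± 0.11). No ozone library of either tissue came within the air range. In liver, where Rcl1 was the only member with its highest air level, 99.5 CPM, values of 1712 ± 253 with ozone and 1439.7 ± 294 with air overlapped (0.27 ± 0.15). In adrenal the fold change was -0.24 ± 0.16.

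Srfbp1, named for its binding to serum response factor, rose in every tissue but hypothalamus. Its adipose values were 432, 492, 498, 376 and 484 with ozone and 160.3, 152, 191, 171 and 182 with air (1.40 ± 0.13). The fold changes were 0.77 ± 0.14 in lung, 0.87 ± 0.16 in liver, 0.78 ± 0.13 in adrenal and 0.60 ± 0.15 in muscle, with no overlap of the groups in any of the 5 tissues. In hypothalamus values of 228 ± 44.5 with ozone and 213 ± 40.4 with air did not pass the threshold (0.10 ± 0.16). Choosing Dcaf13, Srfbp1 and Gnl3 for values by library was done after their fold changes were seen.

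Tsr1, a GTPase-like factor of late small subunit assembly, rose in the same 5 tissues as Srfbp1. It had 683, 743 and 813 with ozone and 541, 631 and 674 with air in lung, and 1390.0, 1548 and 1661 with ozone and 1058, 1129.9 and 1321 with air in liver. Its values in adipose tissue were 929, 1030.2, 1337, 967 and 1189 with ozone and 741, 734, 762, 739.7 and 796 with air. The ozone libraries lay above all air libraries in each of the 5 tissues, with fold changes from 0.27 ± 0.08 in lung to 0.86 ± 0.15 in adrenal. The lung call was lost without ozone 15, 16 or 20 or without air 2 or 9, at fold changes of 0.23 to 0.27, and the adipose call without ozone 19 or 23 or without air 2, 5, 6 or 9, at 0.48 to 0.53.

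Rrp12, a HEAT-repeat protein of subunit export and maturation, rose in those 5 tissues too, by 0.48 ± 0.13 in lung, 0.86 ± 0.20 in liver, 0.60 ± 0.12 in adrenal, 0.72 ± 0.13 in adipose tissue and 0.46 ± 0.15 in muscle. Its groups overlapped in lung and muscle. The UTP proteins form the first scaffolds on the precursor RNA. Utp3 rose in adrenal (0.70 ± 0.14), adipose tissue (0.63 ± 0.13) and muscle (0.54 ± 0.12), Utp4 in adrenal (0.67 ± 0.10), Utp15 in adipose tissue (0.56 ± 0.15) and Utp18 in muscle (0.49 ± 0.15). Wdr43 and Heatr1 belong to the same early scaffold. Wdr43 rose in lung, liver and adrenal, with overlap in each, and adrenal air 8 at 1613 stood above the other 4 air adrenals, which lay between 532 and 699. Heatr1 rose in adrenal, to 744 ± 87.9 with ozone against 442 ± 106 with air.

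Nop14 and Noc4l bind each other within the processome. Nop14 rose in liver (0.68 ± 0.19), adrenal (0.56 ± 0.18) and muscle (0.57 ± 0.16). Noc4l rose in adrenal and muscle and was the smallest adrenal call, with 298, 342 and 395 in ozone libraries against 258, 279.9, 269, 271 and 231 in air libraries (0.37 ± 0.11). The adrenal call was lost when any of 8 of the 11 libraries was left out (ozone 15, 16, 17 or 19, or air 2, 6, 9 or 11), at fold changes of 0.32 to 0.39. Rrp9, a protein of the snoRNP that guides the early cleavages, rose in muscle (0.83 ± 0.16), and so did Imp4 (0.90 ± 0.22), which belongs to the same complex. Ltv1, a late factor of small subunit export, rose in liver (0.80 ± 0.17) and muscle (0.52 ± 0.17). Utp20, Wdr75, Bms1 (a GTPase) and Ddx10 (a helicase) passed the threshold in no tissue, with fold changes between -0.22 and 0.28.

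Among 11 genes grouped with the large subunit, 2 rose in lung, 6 in liver, 7 in adrenal, 1 in hypothalamus, 0 in adipose tissue and 6 in muscle, where 9.51%, 6.74%, 9.23%, 0.789%, 3.87% and 21.6% of all genes tested rose in these tissues. Bop1, Pes1 and Wdr12 encode the PeBoW complex, which is needed for maturation of large subunit RNA. All of them rose in adrenal, Bop1 by 0.69 ± 0.13, Pes1 by 0.59 ± 0.13 and Wdr12 by 0.64 ± 0.12, with no overlap. Bop1 rose to 208 ± 9.18 in ozone muscles against 133 ± 17.2 in air muscles, and Pes1 to 461 ± 33.2 against 298 ± 50.7. Wdr12 had a fold change of 0.28 in muscle and did not pass the threshold. Bop1 also rose in liver (0.56 ± 0.17).

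Rrs1 and Rrp1b had their largest changes in adrenal. Rrs1, a factor that brings components of the central protuberance to the large subunit, averaged 367 ± 30.9 with ozone and 163 ± 19.0 with air there (1.17 ± 0.12). Rrp1b, a nucleolar protein that binds protein phosphatase, averaged 954 ± 149 with ozone and 477 ± 58.8 with air (0.99 ± 0.13). The groups did not overlap for either gene. In muscle Rrp1b had the lowest fold change of any member, -0.46 ± 0.22, with 407, 452, 522, 467 and 414 in ozone libraries and 315, 678 and 910.0 in air libraries. The ozone muscles lay inside the air range, and the change did not pass limma's threshold, though edgeR, DESeq2 and limma with array weights each called it a fall.

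Nip7, which acts in late large subunit RNA processing, rose in liver (0.53 ± 0.14) and adrenal (0.64 ± 0.19) and had a fold change of -0.37 ± 0.21 in muscle. Nop2 (a cytosine methyltransferase of ribosomal RNA) and Nop16 rose in muscle and passed the threshold in no other tissue, Nop2 by 0.82 ± 0.18 and Nop16 by 0.81 ± 0.20, and had fold changes of -0.05 and -0.38 in liver. Noc2l and Noc3l are partners in nuclear transport of precursor subunits. Noc2l rose in liver (0.45 ± 0.13) and was the smallest muscle call, with 490.3, 441, 413, 569 and 509 with ozone against 353, 368 and 398 with air (0.37 ± 0.11). Leaving out muscle ozone 23 ended that call, at a fold change of 0.31, and so did total-read scaling, at 0.05. Noc3l passed the threshold in no tissue.

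Gpatch4 encodes a nucleolar G-patch protein, a class that activates RNA helicases. It stands last in the large subunit group only because no other group held it. Liver values were 148, 187 and 226 with ozone and 26.4, 35.7 and 48.4 with air, and all ozone livers lay far above all air livers (2.34 ± 0.16). It was also the larger of the 2 hypothalamus calls, with 382, 449 and 555 with ozone and 146, 167 and 259 with air (1.35 ± 0.15), again with no overlap. In lung it had 95.2, 116 and 135 with ozone and 45.5, 59.8 and 69.5 with air (0.96 ± 0.13). In muscle it had 108, 102, 123, 147 and 109 with ozone and 37.7, 73.1 and 91.4 with air (0.77 ± 0.21). The groups stayed apart in both tissues. In adrenal it had 208, 323 and 436 with ozone and 159.7, 173, 94.5, 227 and 173 with air (1.01 ± 0.23). There ozone 16, the lowest ozone library, lay below air 9, and without ozone 16 and air 8 the fold change was 0.95. In adipose tissue it had 155, 152, 154, 205 and 144 with ozone and 57.6, 114, 78.2, 115 and 123 with air. These did not overlap, but the fold change of 0.77 ± 0.22 did not pass the threshold under limma. It passed under DESeq2. The Gpatch4 values of adrenal, adipose tissue and muscle were added after they were seen.

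**Figure D3:**
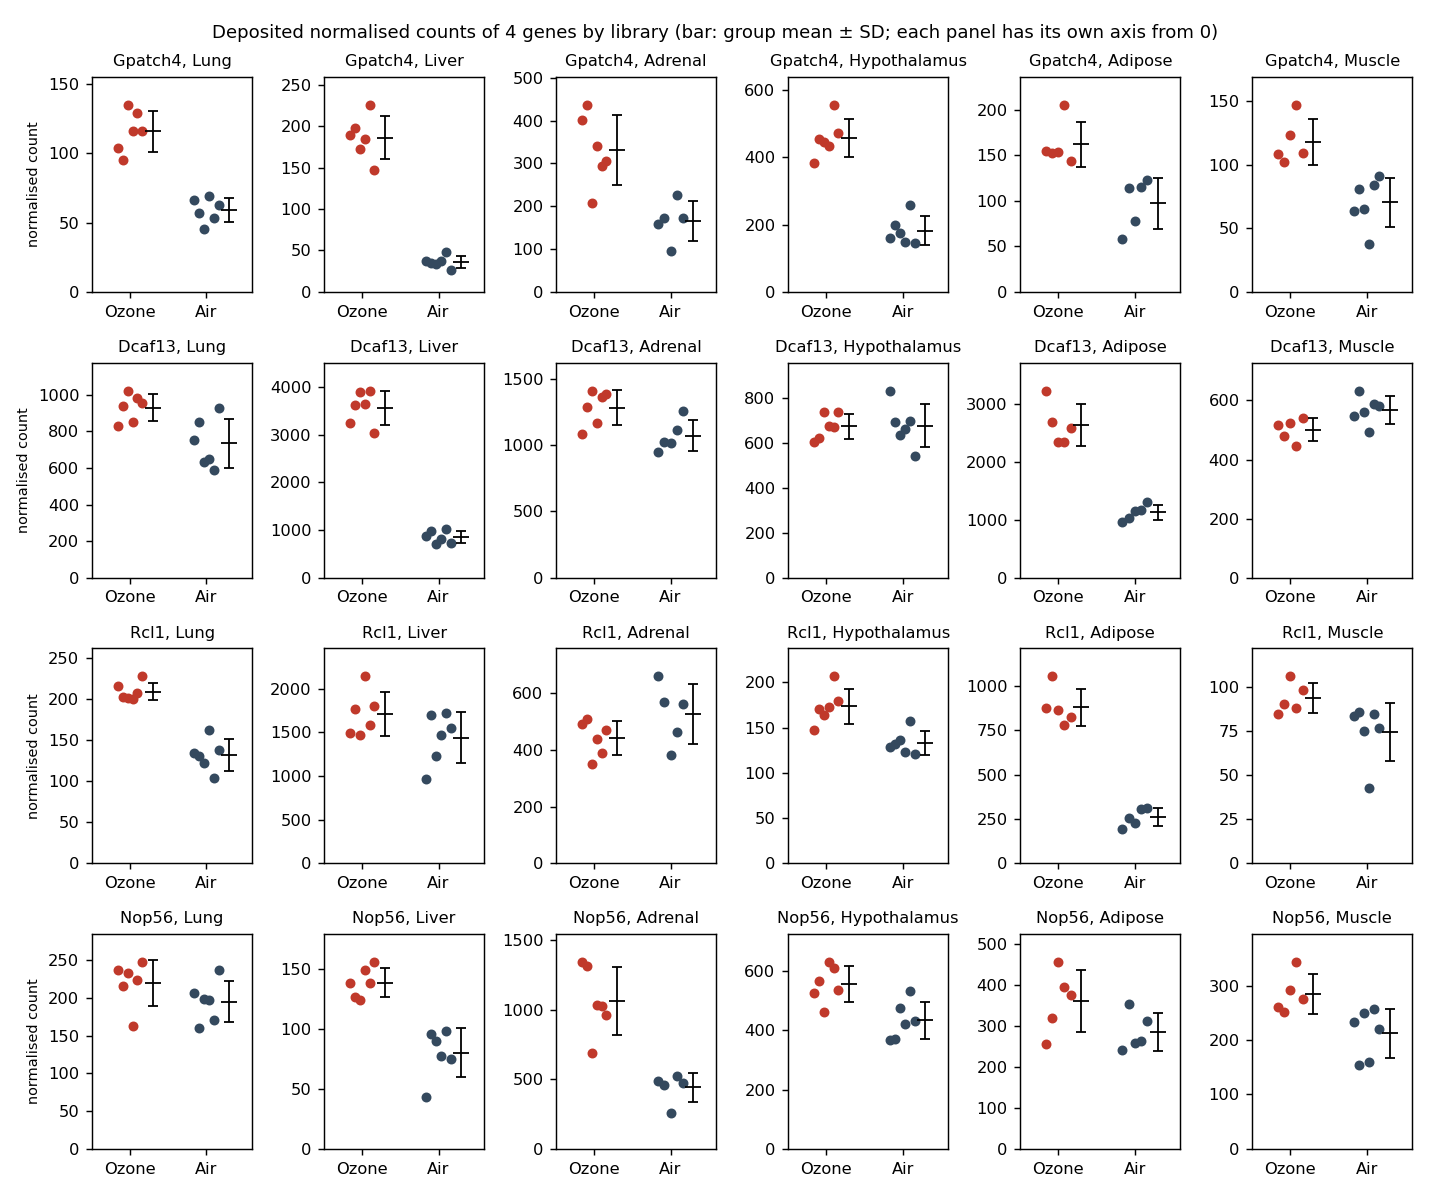
Normalised counts of Gpatch4, Dcaf13, Rcl1 and Nop56 (rows) in every library of 6 tissues (columns), ozone in red on the left and air in dark blue on the right of each panel, with bars for the group mean ± SD and a separate axis from 0 in each panel. Gpatch4 is higher with ozone in all 6 tissues, Dcaf13 separates in liver and adipose tissue, Rcl1 in lung and adipose tissue, and Nop56 in liver and adrenal.

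Across tissues, 4 members rose in 5 tissues (Srfbp1, Rrp12, Tsr1 and Gpatch4), 2 in 4 tissues (Gnl3 and Mybbp1a), 7 in 3, 11 in 2 and 14 in 1. The 7 that rose in none were Fbl, Polr1a, Utp20, Wdr75, Bms1, Ddx10 and Noc3l. These numbers hold for the deposited scaling. Under total-read scaling Srfbp1, Rrp12, Tsr1 and Gpatch4 each lost the muscle call. Rrp12 and Tsr1 also lost that of lung, and Tsr1 that of adipose tissue. Gnl3 lost the lung call, and Mybbp1a lost those of lung, liver and muscle. Liver and adrenal shared 15 risen members, 78.9% of the liver list and 62.5% of the adrenal list. Among all genes tested in both, those risen in both were 24.8% of the liver rises and 19.4% of the adrenal rises. Adrenal and muscle shared 13 members, 54.2% of the adrenal list and 59.1% of the muscle list, where the shares over all genes were 27.1% and 11.2%. Lung and liver shared 9, 90% of the lung list and 47.4% of the liver list, where the shares over all genes were 20.8% and 30.8%. Hypothalamus and adipose tissue shared none, where the shares over all genes were 30.5% of the hypothalamus rises and 6.1% of the adipose rises. The members were chosen on these calls, and nothing is read from the difference. Limma's F test of whether the ozone effect differs between tissues called 20 of the 45 members, where 41.9% of 11111 genes tested were called, so that the members' share is near that of all genes. Dcaf13 and Rcl1 had the lowest adjusted p among the members. The tissues of a comparison may come from the same rats, which the labels do not state.

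Among air libraries the adrenal had the highest level of 36 of the 45 genes, in CPM, and liver the lowest level of 31. Muscle was lowest for 13. Nop56 had 42.4 CPM in air adrenals against 5.54 in air livers, and Tsr1 had 131 against 80.1. The tables were normalised apart, so this order compares CPM recovered from each and was not tested.

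The members that rose in 4 or more tissues with the deposited scaling were compared in sequence. RefSeq promoters of build GRCr8 (the submitters' notes name rn6 for the expression tables), from 250 bases before to 50 after the gene's start, were found for 41 of the 45 genes, and Dcaf13, Wdr43, Bop1 and Rrs1 had no entry. The strings searched, on both strands, were CACGTG (the E-box bound by MYC and MAX), CCGGAAG (the core bound by ETS factors), GCGCA followed at once by TGCGC (bound by NRF1) and AGAACA followed by NNN and TGTTCT (bound by the glucocorticoid receptor). CACGTG and CCGGAAG are in capitals in the promoters of the 6 genes, printed from 5′ to 3′ on the strand of the gene, with the reverse complement CTTCCGG also in capitals.
Gpatch4: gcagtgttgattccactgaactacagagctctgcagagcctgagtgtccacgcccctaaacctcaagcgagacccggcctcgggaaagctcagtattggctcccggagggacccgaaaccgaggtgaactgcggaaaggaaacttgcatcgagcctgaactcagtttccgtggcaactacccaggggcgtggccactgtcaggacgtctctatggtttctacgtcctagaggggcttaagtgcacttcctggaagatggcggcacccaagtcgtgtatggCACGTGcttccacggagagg
Rrp12: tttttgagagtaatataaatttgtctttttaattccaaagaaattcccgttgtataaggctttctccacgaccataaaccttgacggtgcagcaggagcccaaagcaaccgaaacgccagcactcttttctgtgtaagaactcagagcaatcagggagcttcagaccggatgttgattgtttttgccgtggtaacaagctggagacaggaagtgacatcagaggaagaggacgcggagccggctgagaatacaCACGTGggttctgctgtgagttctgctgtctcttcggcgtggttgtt
Tsr1: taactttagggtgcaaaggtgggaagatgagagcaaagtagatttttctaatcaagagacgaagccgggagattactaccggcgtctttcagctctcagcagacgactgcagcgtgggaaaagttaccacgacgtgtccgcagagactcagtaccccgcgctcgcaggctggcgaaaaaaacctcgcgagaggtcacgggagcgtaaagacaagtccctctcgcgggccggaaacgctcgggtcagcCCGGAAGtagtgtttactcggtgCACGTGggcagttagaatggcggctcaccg
Gnl3: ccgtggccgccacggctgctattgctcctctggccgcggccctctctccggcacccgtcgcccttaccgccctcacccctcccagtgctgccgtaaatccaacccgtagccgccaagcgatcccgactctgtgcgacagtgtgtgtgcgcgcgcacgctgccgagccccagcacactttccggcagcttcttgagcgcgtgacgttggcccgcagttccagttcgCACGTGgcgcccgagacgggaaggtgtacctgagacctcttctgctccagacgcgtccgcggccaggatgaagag
Mybbp1a: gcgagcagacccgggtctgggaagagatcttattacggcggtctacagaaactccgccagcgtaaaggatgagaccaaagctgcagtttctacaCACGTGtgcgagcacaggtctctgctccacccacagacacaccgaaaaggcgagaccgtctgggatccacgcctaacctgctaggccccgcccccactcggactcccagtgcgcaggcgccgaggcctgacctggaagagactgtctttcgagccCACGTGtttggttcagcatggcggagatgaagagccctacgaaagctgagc
Srfbp1: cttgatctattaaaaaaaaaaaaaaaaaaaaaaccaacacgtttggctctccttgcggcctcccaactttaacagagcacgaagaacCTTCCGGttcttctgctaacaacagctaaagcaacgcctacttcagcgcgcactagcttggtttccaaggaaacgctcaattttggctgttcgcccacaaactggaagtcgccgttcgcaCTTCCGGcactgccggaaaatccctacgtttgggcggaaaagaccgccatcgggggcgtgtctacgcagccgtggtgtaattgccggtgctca
These windows lie at chr2:175807512-175807811 (plus strand) for Gpatch4, chr1:250655269-250655568 (minus strand) for Rrp12, chr10:60258540-60258839 (plus strand) for Tsr1, chr16:6219733-6220032 (minus strand) for Gnl3, chr10:57555208-57555507 (plus strand) for Mybbp1a and chr18:48118490-48118789 (plus strand) for Srfbp1. All but that of Srfbp1 hold CACGTG, and that of Srfbp1 holds CTTCCGG.

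The E-box stood in 16 of the 41 member promoters (39.0%), in 26 of 99 promoters of other ribosome biogenesis genes (26.3%), in 8.62% of 12370 promoters of genes in the expression tables and in 6.65% of all 27457 promoters. CCGGAAG stood in 19 members (46.3%), in 53.5% of the other ribosome biogenesis genes, in 14.4% of promoters of genes in the expression tables and in 9.22% of all promoters. The NRF1 string stood in 1 member, Npm1, and in 0.932% of all promoters, and the glucocorticoid receptor string in none of the members and in 0.00728% of all. Member promoters were richer in G and C, with a median of 59.3% against 52.3% of all promoters. They held a median of 23 CG pairs against 7 in all promoters, and CACGTG and CCGGAAG each contain CG. The part of this in the shares above was not tested. The E-box stood in 12 of 34 members with a promoter that rose in at least 1 tissue, in 5 of the 6 that rose in 4 or more, and in 4 of the 7 that rose in none, a split by the same calls that chose the members. A match describes these letters in this window and is not a measured binding site.

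Other genes of the same pathway were counted in the same way. Of 119 further ribosome biogenesis genes (polymerase I machinery, small and large subunit factors, snoRNP assembly factors and the RNA exosome), 11 rose and 4 fell of 118 tested in lung, 16 rose and 0 fell of 116 in liver, 35 and 0 of 119 in adrenal, 0 and 1 of 118 in hypothalamus, 13 and 0 of 118 in adipose tissue and 43 and 2 of 118 in muscle. The shares of all genes that rose and fell are those given above for each tissue, and in lung and hypothalamus the share of these genes that rose was no higher. Their median log2 fold change was 0.15 in lung, 0.23 in liver, 0.36 in adrenal, 0.10 in hypothalamus, 0.22 in adipose tissue and 0.30 in muscle, smaller than that of the 45 genes in each. The 45 genes were selected on these same fold changes, so nothing is read from that difference. Under total-read scaling, 9 of the further genes rose and 16 fell in muscle, where 8.52% of all genes rose and 38.3% fell. In adrenal, Pak1ip1 (1.17 ± 0.17, adjusted p = 0.000474), Rrp1 (1.20 ± 0.18, adjusted p = 0.000646) and Taf1d, a polymerase I initiation factor (1.04 ± 0.13, adjusted p = 0.00021), rose. Pak1ip1 (1.16 ± 0.19, adjusted p = 0.00353) also rose in adipose tissue. In liver Twistnb, a polymerase I subunit, rose by 0.95 ± 0.12 (adjusted p = 0.000112) and Gtpbp4, a large subunit GTPase, by 0.81 ± 0.15 (adjusted p = 0.0023). In muscle Bysl rose by 1.01 ± 0.16 (adjusted p = 0.00034) and Wbscr22, an RNA methyltransferase, by 0.95 ± 0.16 (adjusted p = 0.000625). Pdcd11, a large processome scaffold, fell in hypothalamus, to 491 ± 29.6 with ozone against 692 ± 36.0 with air (adjusted p = 0.00671), and in lung, to 693 ± 45.2 against 871 ± 75.7 (adjusted p = 0.0114).

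Genes downstream of assembly were counted in the same way. Of 16 translation factors tested in each tissue, 5 rose in lung, 3 in liver, 8 in adrenal, 0 in hypothalamus, 3 in adipose tissue and 5 in muscle, and 1 fell, in muscle. Of all genes tested, 9.51%, 6.74%, 9.23%, 0.789%, 3.87% and 21.6% rose in these tissues, and 22.1% fell in muscle. Eif4ebp1, an inhibitor of cap-dependent translation, rose in muscle to 675 ± 80.7 with ozone against 208 ± 66.0 with air (adjusted p = 3.63e-05), and Eif4a1, an initiation helicase, rose in adrenal to 6807 ± 423 against 3661 ± 523 (adjusted p = 0.000272). Of 69 to 71 ribosomal protein genes tested, 25 rose in muscle and between 1 and 4 in the other tissues, and none fell. Those risen were 35.2% in muscle, 5.71% in lung, 1.43% in liver, 4.23% in adrenal, 4.35% in hypothalamus and 2.82% in adipose tissue. In lung, liver, adrenal and adipose tissue that was below the share of all genes. Ribosomal protein genes summed to 0.27% of reads with ozone and 0.30% with air in muscle. In hypothalamus they summed to 0.47 ± 0.08% with ozone and 0.37 ± 0.04% with air. In lung, liver, adrenal and adipose tissue group means ran from 0.32% to 0.79%. The median log2 fold change of ribosomal protein genes was 0.16 in lung, 0.01 in liver, 0.22 in adrenal, 0.46 in hypothalamus, 0.24 in adipose tissue and 0.42 in muscle. In hypothalamus 68 of 69 were positive, as were 7495 of 15217 genes tested. Many ribosomal protein genes have pseudogene copies, so their levels are uncertain for the same reason as those of Nhp2. Of 16 nucleotide synthesis genes, 2 rose in lung, 3 in liver, 2 in adrenal, 0 in hypothalamus, 2 in adipose tissue and 5 in muscle, and 1 fell in adrenal and 1 in muscle. The shares of all genes are those given for the translation factors, and 9.38% fell in adrenal.

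**Figure D4:**
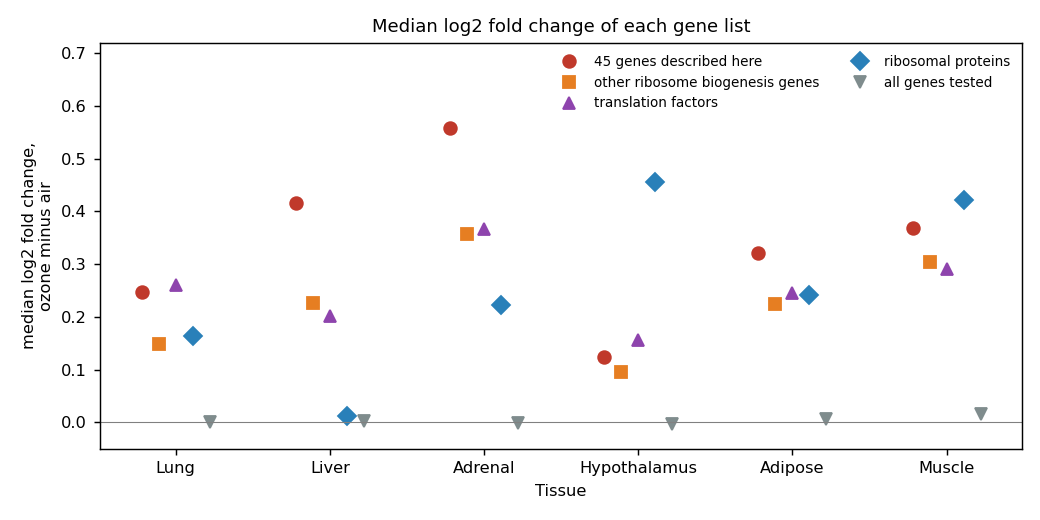
Median log2 fold change, ozone minus air (vertical axis), of 4 gene lists and of all genes tested in each of 6 tissues (horizontal axis). The 45 genes, which were selected on these fold changes, lie above the other ribosome biogenesis genes in each tissue. Ribosomal proteins lie above the 45 genes in hypothalamus (0.46) and muscle (0.42), and translation factors in lung (0.26) and hypothalamus (0.16). The 45 genes run from 0.12 in hypothalamus to 0.56 in adrenal, and all genes tested lie near 0.

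Myc was followed as a known activator of these genes. It rose in lung, to 1019 ± 215 with ozone against 445 ± 37.1 with air (1.17 ± 0.13, limma adjusted p = 2.61e-05), in adipose tissue, to 1033 ± 168 against 581 ± 108 (0.84 ± 0.16, adjusted p = 0.00787), and in adrenal, to 611 ± 54.0 against 407 ± 66.0 (0.60 ± 0.13, adjusted p = 0.00553). It did not pass the threshold in liver, with 56.1 ± 26.1 with ozone and 84.0 ± 35.3 with air (-0.61 ± 0.38, adjusted p = 0.379), in muscle (0.04 ± 0.20, adjusted p = 0.892) or in hypothalamus (-0.01 ± 0.19, adjusted p = 0.983). Max, the partner of MYC, rose in lung (0.51 ± 0.07, adjusted p = 0.000239), adrenal (0.55 ± 0.11, adjusted p = 0.00398) and muscle (0.84 ± 0.15, adjusted p = 0.00069). Mycn rose in adrenal (1.22 ± 0.28, adjusted p = 0.0084) and fell in lung (-0.69 ± 0.21, adjusted p = 0.0327), and Mycl rose in lung (0.42 ± 0.13, adjusted p = 0.0353) and hypothalamus (0.55 ± 0.12, adjusted p = 0.04). Of the MAX-binding repressors, Mxi1 fell in liver (-0.59 ± 0.12, adjusted p = 0.00599), and so did Mxd1 (-0.59 ± 0.12, adjusted p = 0.00361). Not all MYC network calls are named here. In lung 5 rose and 1 fell of 10 tested, and in liver 0 and 2 of 9. The numbers were 5 and 0 of 9 in adrenal, 1 and 1 of 10 in hypothalamus, 1 and 0 of 9 in adipose tissue and 1 and 2 of 8 in muscle. Of all genes tested, 9.51%, 6.74%, 9.23%, 0.789%, 3.87% and 21.6% rose in these tissues. The shares that fell were 8.18%, 4.72%, 9.38%, 0.624%, 3.45% and 22.1%. With 6 tissues and shared rats possible, no relation between Myc and the members was tested.

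**Figure D5:**
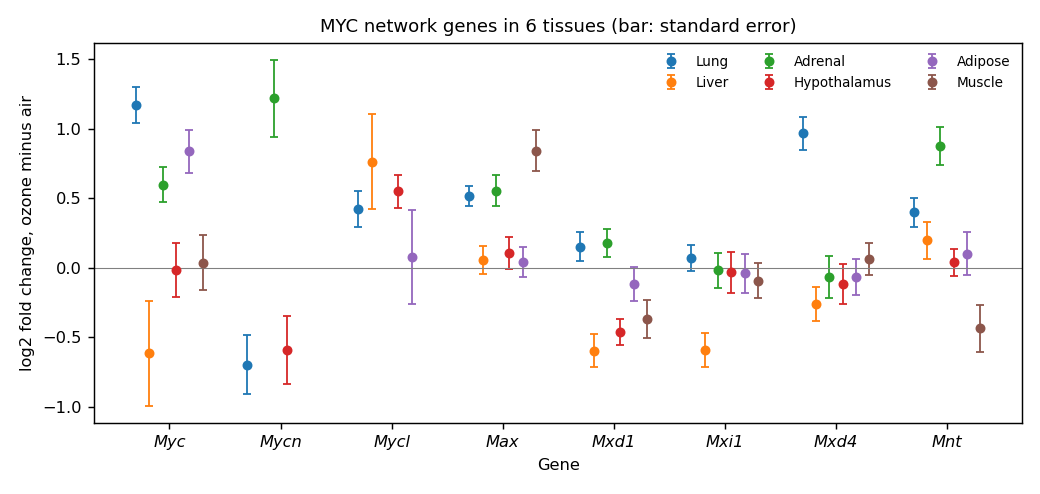
Log2 fold change, ozone minus air, with standard error bars, of 8 genes of the MYC network (horizontal axis) in the tissues where each was tested (colours). Myc is higher with ozone in lung, adipose tissue and adrenal, and near 0 in hypothalamus and muscle. In liver it is lower with ozone and did not pass the threshold.

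Markers of other cell types moved with ozone in some tissues, and their part in the member results was not tested. Of 14 leukocyte genes, 9 fell in lung, where 8.18% of all genes tested fell. The 14 genes summed there to 154 to 236 CPM in ozone libraries and 279 to 409 in air libraries, with none at 0. Lung markers in adrenal summed to 15.1 to 350.1 CPM in ozone libraries and 3.67 to 86.1 CPM in air libraries, and all 5 had positive fold changes, from 1.84 to 2.77, of which 1 rose. In the same tissue 2 of 5 adipose markers rose (252.8 to 567 CPM in ozone and 233 to 408 CPM in air libraries), and 1 of 2 hypothalamus markers tested rose. Of all genes tested in adrenal, 9.23% rose. Of the 4 skeletal muscle markers in muscle 3 rose and 1 fell. Of 4 leukocyte genes tested in muscle 2 fell. Of all genes tested in muscle, 21.6% rose and 22.1% fell. Proliferation genes summed to 116 to 169 CPM in ozone and 92.4 to 115 in air hypothalami, to 264 to 381 in ozone and 138 to 275 in air adrenals, and to 36.1 to 43.3 in ozone and 51.8 to 58.5 in air muscles, where 4 of 10 tested fell. Mitochondrially encoded transcripts made up 6.72% to 12.2% of reads in ozone muscles and 10.4% to 14.9% in air muscles.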

How the data were processed

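Messenger RNA of 6 frozen rat tissues was sequenced on an Illumina NextSeq 500, per the labels' protocols. RNA of lung, liver, muscle and adipose tissue was extracted with one manufacturer's kits and that of hypothalamus and adrenal with another's. The deposited values are a normalised signal, read counts per gene divided by a size factor for each library, in a separate table for each tissue. Partek, DESeq2 and the build rn6 are named by the submitters' processing notes, with no version or role. The sources used here do not name the aligner, annotation, strand setting or counting method. Dividing by the step of each library made 100% of values whole to within 0.01, which gave the library totals of 8854272 to 18848151 reads. Entries turned into calendar dates (24 of 19465) were left out, as were 2 labelled libraries that were not analysed here. No value column was left unmapped.

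Groups came from the labels, and the labels do not state that replicates are separate animals, so p-values reflect only how much these libraries vary, which may be technical. Within each tissue, limma 3.58.1 (R 4.3.3, trended and robust) was fitted to log2(value + 1) of genes with a mean of at least 10, and p-values were adjusted by Benjamini-Hochberg over all genes tested with a threshold of 0.05. The F test of the 5 terms for tissue and exposure together used genes that reached that mean in every tissue. The fits were tested on simulated data. Alternatives were TMM scaling, pseudocounts of 0.5 and 4, no filter, a minimum mean of 50, array weights, edgeR 4.0.16 and DESeq2 1.42.0 on the recovered reads, and leaving out each library. On the recovered reads edgeR called 2694 genes in lung, 1430 in liver, 2642 in adrenal, 200.0 in hypothalamus, 1030.0 in adipose tissue and 5679 in muscle. Total-read scaling and leaving out adrenal ozone 16 with air 8 were added after the data were seen.

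The 45 members and all gene lists were chosen with earlier results of these data known. Values by library are given for the members with the highest and lowest fold change among those past the threshold in each tissue, and for Ncl, Npm1, Fbl, Nop56, Dkc1 and Polr1b in the tissue where each changed most; those added after seeing values are named as such. At most 2 genes with the lowest adjusted p are named from each other list, and Myc, Mycn, Mycl, Max and Mxi1 in every case.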

Additional observations from a re-analysis of the deposited data

Results flagged for a closer look

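Within-group values were screened with Dixon's test in 60 groups of 4 to 10 libraries, of which 4 were flagged, and chance flags about 1 in 20 groups. In adrenal air libraries, Ncl of air 8 was 875, against 1462 to 1540.0 in the other 4, and Nop56 of air 8 was 259.5, against 455 to 526. In adipose tissue, Gpatch4 of ozone 22 was 205, against 144 to 155 in the other ozone libraries. In muscle air libraries the mean over the 45 genes was -0.23 in air 7, against 0.01 to 0.09 in the other 5.

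The ozone effect differed between tissues for 20 of the 45 members by limma's F test. The adjusted p was 5.02e-20 for Dcaf13 and 2.08e-10 for Rcl1. It was 2.57e-06 for Nop58, 3.49e-06 for Gpatch4, 7.16e-06 for Rrp1b, 2.62e-05 for Srfbp1, 5.88e-05 for Tsr1 and 6.69e-05 for Rrs1. It was 0.000407 for Polr1b, 0.000781 for Nop56, 0.00243 for Nop16, 0.00475 for Nip7, 0.00688 for Utp4, 0.00745 for Gnl3, 0.00764 for Wdr43 and 0.00824 for Noc2l. It was 0.0139 for Noc3l, 0.0205 for Ncl, 0.0372 for Bop1 and 0.0419 for Rrp12. The members were chosen with the same contrasts known, and 41.9% of all genes tested were called in this way, so these values are a description.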

How the results depend on the processing

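No member median changed sign under the settings tried, and none of the single-gene calls followed under them was reversed. Smaller fold changes of genes given by library did change sign. Under total-read scaling that of Dcaf13 in hypothalamus went from 0.003 to -0.02, and that of Gnl3 in muscle from 0.13 to -0.19. Over all members, total-read scaling turned positive fold changes negative for 3 in lung, 1 in liver, 3 in adrenal, 1 in hypothalamus, 8 in adipose tissue and 7 in muscle, none of which had risen. With array weights, the number of members risen was 16 in lung and 4 in hypothalamus, 1 member fell in each of lung, liver, adrenal and muscle, and the F test called 36 members, where it called 67.8% of all genes. All genes risen with these weights were 14.2% in lung, 10.4% in liver, 17.2% in adrenal, 2.64% in hypothalamus, 5.38% in adipose tissue and 23.2% in muscle. Of the other ribosome biogenesis genes, 25 rose in lung, 29 in liver, 60 in adrenal and 5 in hypothalamus with array weights, and 1 fell in liver, 4 in adrenal and 1 in adipose tissue. With DESeq2, 15 members rose in adipose tissue, 1 fell in muscle, 20 other ribosome biogenesis genes rose in adipose tissue and 2 in hypothalamus, and 2 fell in adrenal. With edgeR, 1 member fell in muscle. With no filter 1 member rose in hypothalamus. Under total-read scaling 3 members rose in lung, 1 in hypothalamus, 5 in adipose tissue and 8 in muscle, 8 fell in muscle, and the members' median was 0.42 in adrenal, 0.18 in adipose tissue and 0.044 in muscle. Other ribosome biogenesis genes risen under it numbered 4 in lung, 21 in adrenal, 5 in adipose tissue and 9 in muscle, and 4 fell in adrenal and 16 in muscle. Of all genes, 6.77% rose in lung, 6.03% in adrenal, 0.591% in hypothalamus, 2.5% in adipose tissue and 8.52% in muscle under this scaling. The shares that fell were 14.4% in adrenal and 38.3% in muscle.

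Each library was also left out in turn. The shares of all genes are not given for these fits, so the counts do not show whether all genes changed likewise. In lung, 3 to 14 members and 4 to 24 other ribosome biogenesis genes rose, 1 to 5 of the others fell, and the members' median was 0.21 to 0.31. The liver gave 11 to 18 members and 10 to 19 others risen, 0 to 1 others fallen and a median of 0.37 to 0.43. Adrenal values were 18 to 27 and 26 to 44 risen, 0 to 1 others fallen and 0.52 to 0.59. Hypothalamus values were 1 to 2 and 0 to 1 risen, 1 other fallen and 0.10 to 0.17. For adipose tissue, 6 to 9 and 7 to 12 rose, 0 others fell and the median was 0.27 to 0.40. Muscle gave 17 to 22 and 36 to 45 risen, 0 to 1 members and 1 to 3 others fallen, and 0.36 to 0.43. No member fell outside muscle. The count of other genes risen moved by over 1.5 times in lung without ozone 13 (4), 19 (5) or 20 (4) or air 1 (7), 2 (5), 8 (6), 9 (4) or 10 (24), in liver without air 7 (10), and in adipose tissue without air 2 (8), 5 (7), 9 (7) or 12 (8). Without adrenal ozone 16 and air 8 together, 32 members and 58 other ribosome biogenesis genes rose and 2 of the others fell. In that fit 30.2% of all genes tested were called in either direction, against 18.6% with all adrenal libraries.

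Ozone and air libraries of a tissue share no replicate number, and tissues do. Same-numbered libraries of different tissues did not deviate together (median correlation of residuals 0.01 over 90 pairs, 34 of them over 0.1), so they were not treated as pairs, and the F test with the replicate number as a block called 20 members, as without it. Of 488 fold changes of single named genes under an alternative setting, 442 kept their call, 42 lost it and 4 gained it. The cause of these shifts was not tested. Low counts limit Nhp2 most.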
